A study of Mus musculus with 48 samples.

Results

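The genes of the cytosolic ribosomal proteins are described here across all conditions of a nascent RNA study in mouse embryonic stem cells. Members were chosen by gene symbol alone: Rpl or Rps followed by a number with an optional a or x, or Rplp0, Rplp1, Rplp2 and Rpsa. Pseudogenes, the Rps6k kinase genes and paralogs whose symbol ends in l were left out by that rule, and genes such as Rps3a1 and Fau did not match it. The rule found 76 genes of the 54752 listed in each of 3 count tables. Of these, 46 encode proteins of the 60S subunit and 30 encode proteins of the 40S subunit.

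Each ribosome carries a single copy of nearly every one of these proteins; the acidic stalk proteins Rplp1 and Rplp2 are an exception. Their transcripts begin in a tract of pyrimidines at the start site, the TOP motif, through which mTOR signalling and LARP1 set their translation. Their genes are short, strongly transcribed and often carry small nucleolar RNAs (snoRNAs), guides of ribosomal RNA modification, in their introns.

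The cells were mouse embryonic stem cells grown in medium labelled L2i, and newly made RNA was labelled with 4-thiouridine (4SU) before the libraries were made. In FOXD3-iKO cells, 4-hydroxytamoxifen (4HT) was set against its solvent ethanol at 8, 14, 24 and 32 h of treatment, with 30 min of 4SU. In OCT4-tetOff cells, doxycycline was set against water at 16 and 24 h, also with 30 min of 4SU. Synchronized FOXD3-iKO cells, again 4HT against ethanol, were held by a double thymidine block, released 24 h after tamoxifen and collected at 0, 1, 2, 3, 4 and 5 h, with 15 min of 4SU. FOXD3 is a forkhead transcription factor and OCT4, encoded by Pou5f1, a POU factor; both are regulators of pluripotency. Each of the 24 groups had 2 libraries, 48 in all. The labels do not say how many clones either line comes from, nor whether the 2 libraries of a group came from separate cultures, so p-values measure the spread between these libraries, which may be technical.

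The promoters of 10 members that stand at the ends of the comparisons below are shown first, because the TOP motif lies at the start site. RefSeq (build GRCm38.p6) supplied start sites for 56 of the 76 members, with 66 start sites in all. Each line runs 5′ to 3′ from 40 bases before the start and covers 65 bases, and capitals mark the longest run of at least 8 C or T. Rpl41 (chr10:128549144-128549208, minus strand), Rps15 (chr10:80292391-80292455, plus strand) and Rpl12 (chr2:32961672-32961736, plus strand) were among the members with the strongest evidence of lower levels in cycling cells. Rpl15 (chr14:18270962-18271026, minus strand), Rpl39 (chrX:37085198-37085262, minus strand) and Rps12 (chr10:23787185-23787249, minus strand) were among those in synchronized cells. Rpl4 (chr9:64173347-64173411, plus strand), Rpl10a (chr17:28328431-28328495, plus strand), Rps15a (chr7:118116123-118116187, minus strand) and Rpl28 (chr7:4792925-4792989, plus strand) were each among the least changed members of a comparison.
Rpl41: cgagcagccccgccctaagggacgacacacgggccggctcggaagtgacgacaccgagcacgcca
Rps15: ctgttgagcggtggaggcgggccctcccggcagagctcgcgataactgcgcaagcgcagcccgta
Rpl12: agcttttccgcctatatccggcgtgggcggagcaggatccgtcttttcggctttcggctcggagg
Rpl15: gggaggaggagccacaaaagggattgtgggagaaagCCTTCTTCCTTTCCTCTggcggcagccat
Rpl39: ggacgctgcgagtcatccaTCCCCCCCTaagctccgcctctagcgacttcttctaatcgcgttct
Rps12: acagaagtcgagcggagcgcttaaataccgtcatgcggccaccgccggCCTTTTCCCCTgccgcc
Rpl4: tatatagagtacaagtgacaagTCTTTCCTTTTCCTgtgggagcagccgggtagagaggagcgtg
Rpl10a: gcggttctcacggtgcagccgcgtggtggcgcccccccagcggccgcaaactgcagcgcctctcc
Rps15a: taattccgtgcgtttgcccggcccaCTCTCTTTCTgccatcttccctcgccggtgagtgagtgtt
Rpl28: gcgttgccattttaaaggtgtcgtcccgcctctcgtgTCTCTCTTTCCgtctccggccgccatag

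A pyrimidine run of at least 8 bases on the gene's strand lay within 50 bases of the start in 54 of the 66 member promoters, or 81.8%, and in 35.7% of all 32851 promoters. Such a run lay within 6 of the 10 windows shown, which reach only from 40 bases before the start to 25 bases from it. Members named for lower levels and members named as least changed in a comparison were both found with and without it there. Over 300 bases and both strands, CTCTTTC was found in 30.3% of member promoters and 8.16% of all promoters, and it can lie inside a pyrimidine run. The ETS core CCGGAAG was found in 36.4% of member promoters against 8.86% of all, the YY1 core AAGATGG in 16.7% against 6.34%, and the SP1 core GGGCGG in 60.6% against 35.7%. TATAAA was the one motif searched that was less frequent in member promoters, at 9.09% against 13.6% of all. These are letter matches, with no binding measured here. The 20 members without an entry included Rplp1, Rpl21, Rpl29, Rps27a, Rps29, Rpl8, Rpl17, Rpl23a, Rpl7, Rpl30, Rpl32, Rps14, Rpl3, Rpl36 and Rps20.

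The members lie on 19 chromosomes and span 828 bp (Rpl36) to 25164 bp (Rpl11), with a median of 3237.5 bp against 3332 bp for all listed genes. The length given in the deposited tables is that of the whole gene interval, introns included. No source used here says how reads in the overlap of 2 listed genes were assigned. Within the intervals of 29 members lie 58 snoRNA genes of the RefSeq annotation. In all, 44 members overlap another listed gene, and 20 of them overlap one on the opposite strand. No source used here says whether strand was used in counting, or how reads matching both a member and one of the 298 listed pseudogenes of these genes were treated.

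The newly made RNA of these genes was among the most abundant per length in every table. Levels are given as CPM (counts scaled to the library total, on library sizes scaled by edgeR's TMM method) per kilobase of gene interval, averaged over the libraries of a table. The median member stood at 26.1 CPM per kb in cycling FOXD3-iKO cells, where the median of all genes tested was 0.60 CPM per kb and 99.0% of them lay below the median member. In OCT4-tetOff cells the median member stood at 23.5 CPM per kb, and in synchronized cells at 31.2 CPM per kb. Rps12, a protein of the 40S beak, was highest in both FOXD3-iKO tables, at 70.5 CPM per kb in cycling and 87.8 CPM per kb in synchronized cells. Rpl4, which lines the peptide exit tunnel, followed in cycling cells at 66.9 CPM per kb, and Rps9 was highest in OCT4-tetOff cells at 64.8 CPM per kb.

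Low levels per kb were few. Rpl11, which binds 5S RNA together with Rpl5, had 3.69 CPM per kb in cycling FOXD3-iKO cells, over the longest interval of the set. Not divided by length, its mean in OCT4-tetOff cells was 84.3 CPM, beside 83.5 CPM for Rpl15. Rpl13a, which overlaps 6 listed genes on its own strand, 4 of them snoRNA genes, had 3.72 CPM per kb in those cells and 2.29 CPM per kb in synchronized cells. Rpl29 came next in both FOXD3-iKO tables, at 8.56 and 8.77 CPM per kb. The shortest genes, Rpl36, Rps21 and Rps27, had 43.3, 47.3 and 55.5 CPM per kb in synchronized cells, against 10.5, 29.2 and 19.2 CPM per kb in cycling FOXD3-iKO cells. The tables differ in labelling time and were scaled separately, so this difference was not tested.

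**Figure D1:**
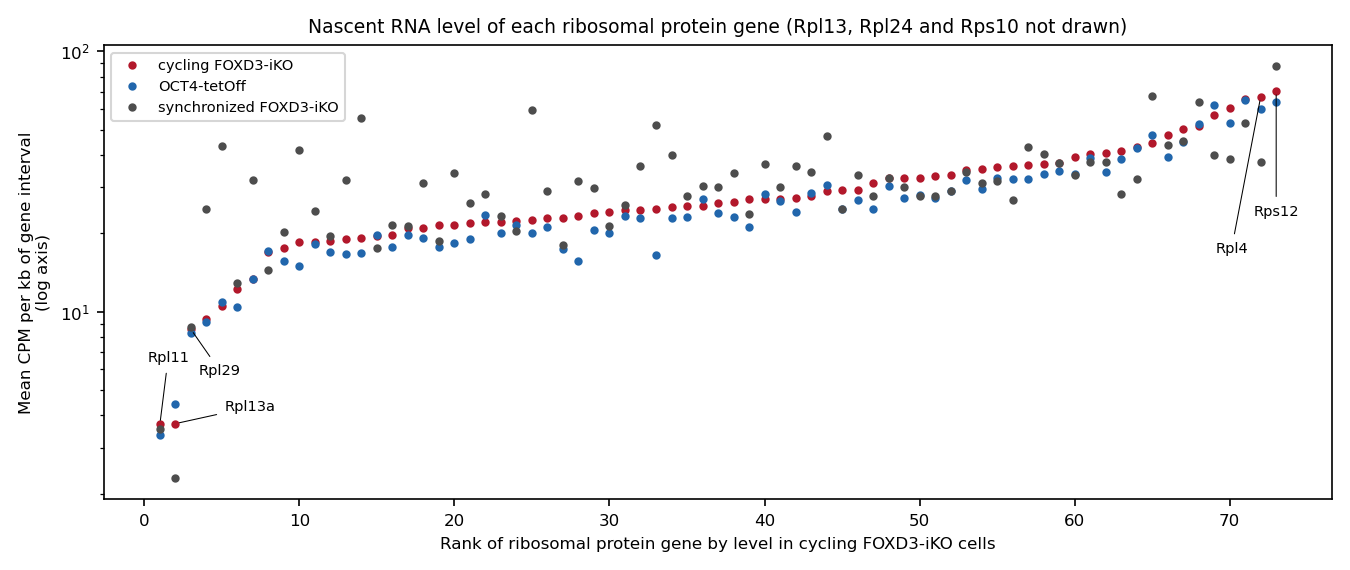
Mean nascent RNA level of each ribosomal protein gene in CPM per kb of gene interval (log axis), with 1 point for each of the 3 tables; genes run by rank, from low to high in cycling FOXD3-iKO cells, and some are named. Most members lie close together around the median of 26.1 CPM per kb, with Rpl11 and Rpl13a at the low end and Rps12 at the high end.

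Rpl13, Rpl24 and Rps10 had almost no counts. Rpl13, a 60S protein gene at chr8:123102350-123105244 of the files' coordinates, had 0 counts in all 48 libraries, and lies inside the listed interval of Gm20388, which is 4434882 bp long and had 1628 to 6417 counts per library. Rpl24 had 0 or 1 count per library and overlaps Gm28037, which had 195 to 648. Rps10 had 0 to 9 counts per library in cycling FOXD3-iKO cells, 4 to 22 in OCT4-tetOff cells and 0 to 3 in synchronized cells, and overlaps RPS10-NUDT3, with 78 to 489 counts. With so few counts no level can be read for these genes, and Rpl13 and Rpl24 passed the low-count filter in no fit. A count of 0 allows up to 3 counts, or 0.099 to 0.377 CPM across the libraries. That left 73 members tested in both FOXD3-iKO tables and 74 in OCT4-tetOff cells, where Rps10 passed.

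Libraries held 21827951 to 30406124 counts in cycling FOXD3-iKO cells, 21113158 to 26112435 in OCT4-tetOff cells and 7953841 to 17936504 in synchronized cells, and members took 0.465 to 1.14% of them. The genes Gm26917 and Gm42418, which carry ribosomal RNA sequence, took 3.41 to 43%. Foxd3 was lower with 4HT by 1.33 on the log2 scale at 8 h (not called, adjusted p = 0.39), by 1.63 at 32 h (adjusted p = 0.0029) and by 1.84 over release (adjusted p = 7.1e-09), and Pou5f1 fell by 1.83 after 24 h of doxycycline (adjusted p = 1.1e-05), in edgeR's quasi-likelihood test. Of 10 pluripotent stem cell markers, Sox2 was listed at 0 in every library and the other 9 were tested; their summed level was 2440 to 3244 CPM in cycling FOXD3-iKO cells, 1010 to 3370 CPM in OCT4-tetOff cells and 2888 to 3752 CPM in synchronized cells. Of 10 fibroblast feeder markers, the summed level was 10.5 to 31.4 CPM over the 3 tables. Trophectoderm markers summed to 31.1 to 156 CPM and neural markers to 9.90 to 83.0 CPM, with Sox1 and Tubb3 at 0 throughout. A listed 0, here or for Sox2, need not mean that no RNA was made. How reads in overlapping genes were assigned is not known, and overlaps were examined for members only. In such bulk samples, fewer cells of a type and less RNA per cell cannot be told apart.

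The first comparison asked how these genes responded to 4HT in cycling FOXD3-iKO cells as the treatment went on. No member was called at 8, 14 or 24 h, 37 of 73 fell at 32 h, and none rose at any time. A member was called when edgeR's quasi-likelihood test gave a Benjamini-Hochberg adjusted p, over all genes tested, under 0.05. At 8 h the median log2 fold change of members was 0.09, at 14 h -0.02 and at 24 h -0.08. No member had an unadjusted p under 0.05 at these 3 times, in a background of 0.0107, 0.016 and 0.481% of all genes called; DESeq2 called no member either.

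At 32 h the share of all genes called lower was 4.59%, against 37 of the 73 members tested. All 73 had a log2 fold change below 0, from -0.73 to -0.05, with a median of -0.41 and an SD over members of 0.13. The median of all 18707 genes tested was -0.05. Set on the scale of each member's own mean, the members' median level was -0.51 and -0.50 (log2) in the 4HT libraries, against -0.22 and 0.07 in the ethanol libraries. Both 4HT libraries thus lay below both ethanol libraries, and ethanol replicate 1 lay about midway between the 4HT libraries and ethanol replicate 2.

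**Figure D2:**
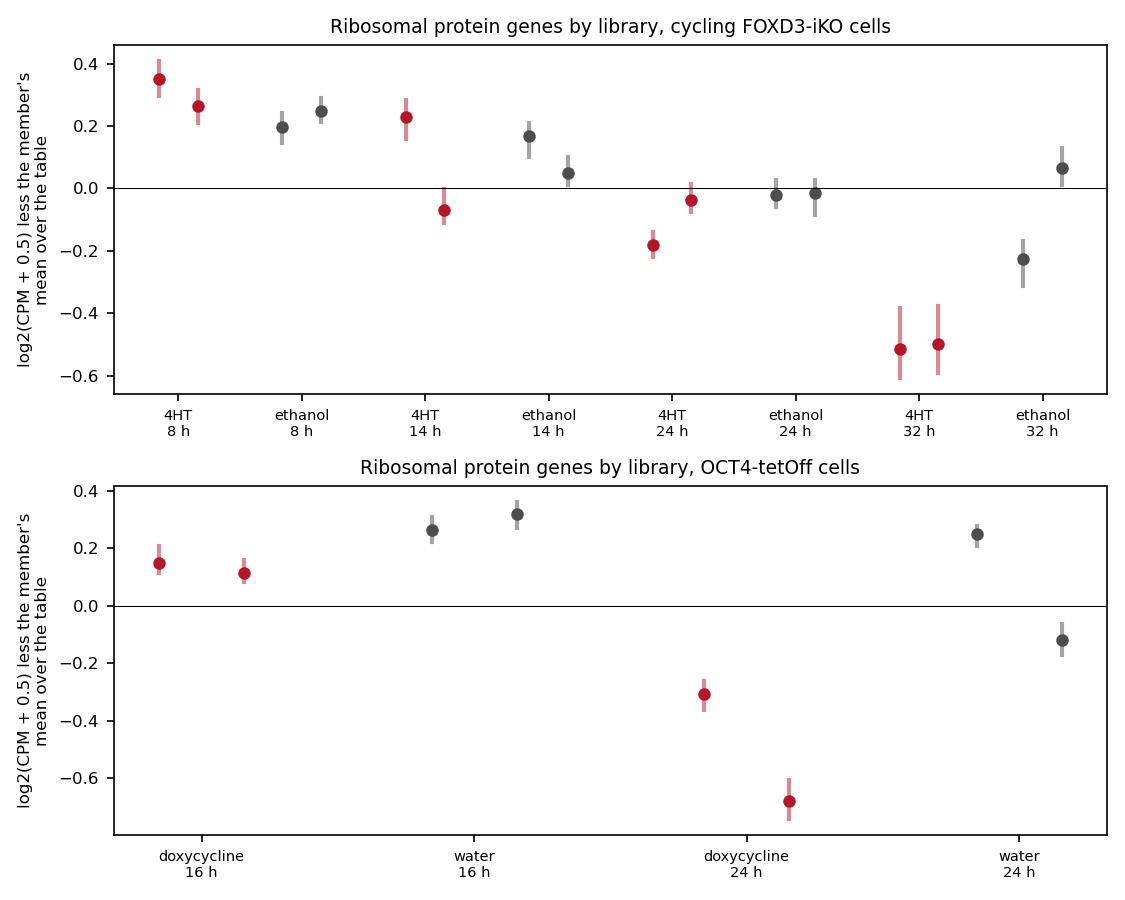
Level of the ribosomal protein genes in each library, as log2(CPM + 0.5) less each gene's mean over its table; points are medians over members and bars span the quartiles, for 4HT and ethanol in cycling FOXD3-iKO cells (top) and doxycycline and water in OCT4-tetOff cells (bottom). The 4HT libraries at 32 h (-0.51 and -0.50) and the doxycycline libraries at 24 h (-0.31 and -0.68) lie below their solvent libraries.

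Of 44 tested members of the 60S subunit 23 were called, and of 29 of the 40S subunit 14. Their medians were close, at -0.42 and -0.41. Rpl41, the smallest protein of the ribosome, had the smallest p: it had 35.8 and 31.3 CPM in the 4HT libraries, against 51.2 and 57.7 CPM in the ethanol libraries. The groups did not overlap, and the log2 fold change was -0.70 ± 0.13 (SE; adjusted p = 0.0043, edgeR quasi-likelihood test). Rps15, a protein of the 40S head, had 23.9 and 26 CPM with 4HT, against 34.6 and 44.6 CPM with ethanol. It also separated the groups, at -0.67 ± 0.13 (SE; adjusted p = 0.0051). Rpl36, the member of shortest interval, had the lowest fold change but low counts, with 4.69 and 4.22 CPM with 4HT against 6.06 and 8.75 CPM with ethanol. Its log2 fold change was -0.73 ± 0.18 (SE; adjusted p = 0.018).

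Other members that fell at 32 h included Rpl29 (log2 fold change -0.65), Rpl8, which sits beside the peptidyl transferase centre (-0.59), Rps21 (-0.65), Rps23 of the decoding centre (-0.52), Rpl11 (-0.50) and Rps13 (-0.53). Adjusted p for these 6 was between 0.0076 and 0.014 in edgeR's test. Members at the other end were not called. Rps20, a protein of the 40S head, had 109 and 127 CPM with 4HT, against 111 and 134 CPM with ethanol, and its groups interleave. Its log2 fold change was -0.05 ± 0.12 (SE; adjusted p = 0.85). Rps29 stood at -0.15 (adjusted p = 0.47) and Rps15a at -0.16 (adjusted p = 0.35).

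The count of called members at 32 h rests on single libraries. It was higher without ethanol replicate 1 and lower without any other of the 4 libraries, and so was the number of all genes called lower. The median over members stayed between -0.56 and -0.27. Gm26917 and Gm42418 took 13.9 and 12.5% of counts in the 4HT libraries and 14.3 and 28% in the ethanol libraries, and 5 of 8 tested primitive endoderm markers rose, with a summed level of 184 to 189 CPM with 4HT against 111 to 130 CPM with ethanol. Of 9 tested trophectoderm markers 2 rose, with a summed level of 87.0 to 89.5 CPM with 4HT against 48.9 to 68.1 CPM with ethanol, and of 9 tested pluripotency markers 1 fell, with 2669 to 2704 CPM against 2944 to 3209 CPM. Of all genes 4.88% were called higher and 4.59% lower, and the markers' shares were not tested against these. Feeder markers summed to 10.5 to 10.6 CPM with 4HT against 10.5 to 10.8 CPM with ethanol, and neural markers to 16.7 to 19.4 CPM against 17.6 to 23.5 CPM. The part of these genes in the result was not tested. Scaling by total counts moved the median of all genes by 0.17 and left 5 members called, with 239 of 18707 genes called lower. Relative to all genes the members' median was -0.36 under both scalings. A change of scale moves all genes of a library alike, so this value could hardly differ and shows nothing about robustness. Scaling by total counts outside the genes that carry ribosomal RNA sequence left 2 called, with 288 of 18710 genes called lower. With the 4 libraries of 32 h fitted alone, no member was called, and 38 of 17258 genes were called lower.

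Whether the response at 32 h exceeded that at 24 h was tested directly. All 73 members were lower in this difference, with a median of -0.34, but edgeR called none: 24 had an unadjusted p under 0.05. Of all genes, 0% were called, 1395 had an unadjusted p under 0.05, and DESeq2 called 11 genes and no member. Without ethanol replicate 1 of 32 h some members were called, and the number of all genes called in that refit is not given here. Between ethanol cells of 32 h and ethanol cells of 24 h, no member was called in a background of 5.38%, 4 had an unadjusted p under 0.05 and DESeq2 called none; the median was -0.07. Without ethanol replicate 2 of 32 h some members were called in this solvent comparison, again with no number of all genes given here.

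The same question was put for doxycycline in OCT4-tetOff cells. At 16 h 1 of 74 members was called, in a background of 8.91% of all genes called lower, and at 24 h 64 of 74 fell, in a background of 18.7%. The median log2 fold change of members was -0.16 at 16 h and -0.55 at 24 h, where the median of all genes tested was -0.01. At 24 h 39 of 44 tested members of the 60S subunit and 25 of 30 of the 40S subunit were called, with medians of -0.56 and -0.53. The members' median level was -0.31 and -0.68 (log2, relative to each member's mean) in the doxycycline libraries of 24 h, against 0.25 and -0.12 in the water libraries. Both doxycycline libraries lay below both water libraries.

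Rpl36 was the member called at 16 h. It had 8.34 and 9.68 CPM with doxycycline, against 12.5 and 12.5 CPM with water, a log2 fold change of -0.47 (adjusted p = 0.032, edgeR quasi-likelihood test); leaving out any 1 of the 4 libraries ended this call, and so did DESeq2. At 24 h Rpl36 had 4.84 and 4.28 CPM with doxycycline, against 9.95 and 10.4 CPM with water. The groups were far apart relative to their spread, and the log2 fold change was -1.16 ± 0.13 (SE; adjusted p = 0.00019).

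Rps29, a small zinc-binding protein of the 40S head, had 19.8 and 17.3 CPM with doxycycline at 24 h, against 34.3 and 27.4 CPM with water. It fell by 0.73 on the log2 scale (adjusted p = 0.0016). Rpl29 had 11.7 and 8.78 CPM with doxycycline, against 19.7 and 17.3 CPM with water, and fell by 0.85 (adjusted p = 0.0018). In both, the 2 doxycycline libraries lay below the 2 water libraries. Rpl41 (-0.78), Rpl12 of the stalk base (-0.76), Rpl18 (-0.78), Rpl35 (-0.69), Rps2 (-0.66) and Rpl17 (-0.61) also fell, with adjusted p between 0.0033 and 0.0050 in edgeR's test.

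Of the 10 members not called at 24 h, Rps15a was the least changed, with 280 and 246 CPM with doxycycline against 350 and 275 CPM with water. Its groups overlapped, at a log2 fold change of -0.25 (adjusted p = 0.17). Rpl34 stood at -0.35 (adjusted p = 0.057), and Rps10, with few counts, at 1.16 (adjusted p = 0.068). Fewer members were called at 24 h without water replicate 1 or without doxycycline replicate 2, and more without either of the others. The number of all genes called lower moved the same way. Fitting the 4 libraries of 24 h alone left 30 members called, with 2236 of 17257 genes called lower. The 9 tested pluripotency markers all fell at 24 h, with a summed level of 1010 to 1136 CPM with doxycycline against 2924 to 2937 CPM with water. Of 8 tested primitive endoderm markers 5 rose and 1 fell, with a summed level of 154 to 177 CPM with doxycycline against 174 to 204 CPM with water. Of 9 tested trophectoderm markers 4 rose, and the list summed to 128 to 156 CPM with doxycycline against 57.4 to 61.4 CPM with water. Neural markers, of which 1 of 3 tested rose, summed to 63.4 to 83.0 CPM with doxycycline against 27.82 to 28.04 CPM with water, and feeder markers, of which 2 of 5 tested rose and 1 fell, to 29.5 to 31.4 CPM against 19.5 to 20.5 CPM. Of all genes 18.1% were called higher and 18.7% lower, and the shares of these short marker lists were not tested against that. The part of the markers' changes in the members' decrease was not tested.

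The growth of the doxycycline response between 16 and 24 h was negative in all 74 members, with a median of -0.40. None passed edgeR's test of the difference, 11 had an unadjusted p under 0.05 and DESeq2 called no member. Among all genes 0% were called, 1952 had an unadjusted p under 0.05 and DESeq2 called 86.

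**Figure D3:**
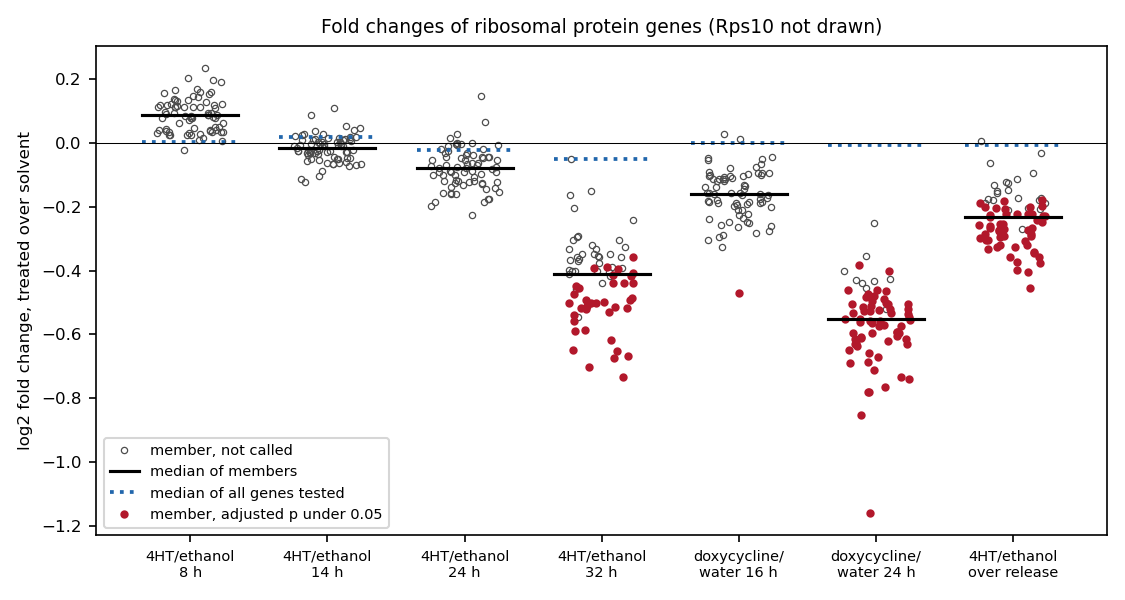
Log2 fold change of every tested ribosomal protein gene, treated over solvent, in the 4 cycling FOXD3-iKO comparisons, both OCT4-tetOff comparisons and over all release times in synchronized cells; filled points have an adjusted p under 0.05, solid bars are medians of members and dotted bars medians of all genes tested. The members' medians are -0.41 at 32 h of 4HT, -0.55 at 24 h of doxycycline and -0.23 over release, below the dotted bars.

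Both treatments had a 24 h time point, so the 4HT response there was set against the doxycycline response in 1 fit. The difference, 4HT less doxycycline, was above 0 in 73 of 74 members with a median of 0.48. In it 5 members were called, all higher, in a background of 9.08% of genes called higher: 5 of 74 is a smaller share than that background. They included Rpl36 (1.13, adjusted p = 0.0027), Rps29 (0.69, adjusted p = 0.028) and Rpl29 (0.66, adjusted p = 0.049) in edgeR's test. The cell lines, solvents and agents differ along with the factor removed, and these cannot be told apart. The count was higher without water replicate 2 or doxycycline replicate 1, and lower without any other library. The number of all genes called in these refits is not given here.

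In synchronized cells 4HT was compared with ethanol over the 6 release times together and at each of them. The fit over all times gives 1 effect and takes the 12 libraries of an arm as replicates. The labels do not say whether the times came from separately treated cultures. Its p-values thus measure the spread between libraries, not necessarily between treatments. Over release 51 of 73 members fell and none rose, in a background of 18.4% of all genes called lower. The log2 fold changes ran from -0.45 to 0.01, with a median of -0.23 against -0.01 for all genes tested. Members took 0.635 to 0.784% of counts in the 4HT libraries (median 0.698%), against 0.742 to 1.14% in the ethanol libraries, 12 of each (median 0.988%). In 4HT libraries Gm26917 and Gm42418 took 5.48 to 21.1% of counts (median 15.9%), against 3.41 to 25.4% in ethanol libraries (median 9.49%), and mitochondrially encoded genes took 0.152 to 0.348% against 0.389 to 0.972%. Primitive endoderm markers, of which 4 of 7 tested rose, summed to 233 to 338 CPM in the 4HT libraries, against 150 to 199 CPM in the ethanol libraries. Trophectoderm markers, of which 2 of 7 tested rose and 1 fell, summed to 49.3 to 77.9 CPM with 4HT against 31.1 to 53.7 CPM with ethanol, and were higher with 4HT at each of the 6 times. Of all genes 18.6% were called higher and 18.4% lower, and the shares of these short marker lists were not tested against that. Pluripotency markers, of which 2 of 9 tested rose and 2 fell, shares near those of all genes, summed to 3129 to 3752 CPM with 4HT against 2888 to 3519 CPM with ethanol. Feeder markers summed to 21.9 to 31.2 CPM against 19.4 to 29.8 CPM, and neural markers to 9.90 to 18.2 CPM against 9.93 to 19.2 CPM. The part of these genes in the result was not tested.

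Rpl15, a 60S protein, had 72.5 to 86.5 CPM in the 4HT libraries (median 79.1), against 82.6 to 125 CPM in the ethanol libraries (median 104). The ranges overlapped at their edges, and the log2 fold change was -0.40 ± 0.05 (SE; adjusted p = 1.2e-05, edgeR quasi-likelihood test). Rpl39, at the mouth of the exit tunnel, had 45.6 to 57.3 CPM with 4HT (median 53.3), against 55.0 to 81.1 CPM with ethanol (median 73.9). Its log2 fold change was -0.45 ± 0.06 (SE; adjusted p = 1.4e-05). Rps12 had 142 to 174 CPM with 4HT (median 160), against 160 to 250 CPM with ethanol (median 209). It fell by 0.36 on the log2 scale, and here too the ranges overlapped (adjusted p = 3.7e-05).

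Rpl7 (-0.30), Rpl30 (-0.36), Rpl5, the other partner of 5S RNA (-0.29), Rpl35a (-0.31), Rps24 (-0.27) and Rps15a (-0.34) were also among the 10 members of smallest p. Rps15a is thus called here, though it was among the least changed members in cycling cells. At the other end stood Rpl10a of the L1 stalk, with 88.4 to 113 CPM with 4HT (median 103) against 70.4 to 132 CPM with ethanol (median 103). Its log2 fold change was 0.01 (adjusted p = 0.97). Rpl4 stood at -0.03 (adjusted p = 0.67) and Rpl28 at -0.06 (adjusted p = 0.73). Leaving out any 1 library gave 48 to 57 called members. Scaling by total counts moved the median of all genes by -0.21. Relative to all genes the members' median was -0.23 under both scalings, which a change of scale could hardly alter. Of all genes called, 50.3% were higher under the main scaling and 9.70% under total counts.

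At single release times fewer members were called. At 0 h, still in the block, 61 of 73 had a fold change above 0 with a median of 0.14, which turned to -0.03 when libraries were scaled by total counts. None was called in a background of 0.445%, with 9 at an unadjusted p under 0.05 and none called by DESeq2. At 1 h Rpl10, a protein that joins late in 60S maturation, was called at -0.45 (adjusted p = 0.039), in a background of 0.581%; leaving out any 1 of the 4 libraries ended that call. At 3 h 11 members fell in a background of 1.21%, and at 5 h 7 fell in a background of 1.13%. At 2 and 4 h edgeR called none, in backgrounds of 0.789 and 0.519%, while 19 and 35 members had an unadjusted p under 0.05 and DESeq2 called 3 and 2. The medians from 1 to 5 h were -0.32, -0.19, -0.33, -0.30 and -0.46. The counts at 3 and 5 h also rest on single libraries. At 3 h the count was higher without ethanol replicate 2, and every call was lost without any other of the 4. At 5 h every call was lost without any 1 library. The number of all genes called in these refits is not given here, so the shifts cannot be read as particular to the members.

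The 11 members called at 3 h included Rpl26, Rpl15, Rpl27, Rpl39, Rps12, Rpl7, Rpl37a, Rpl35, Rps7 and Rpl35a, and the 7 called at 5 h included Rpl21, Rpl23a, Rpl7, Rps12 and Rpl35. Rps12 had 159 and 153 CPM with 4HT at 3 h, against 222 and 207 CPM with ethanol, and 170 and 174 CPM with 4HT at 5 h, against 231 and 250 CPM with ethanol. At both times its 4HT libraries lay below its ethanol libraries, at -0.46 ± 0.12 (SE; adjusted p = 0.044, edgeR quasi-likelihood test) and -0.48 ± 0.12 (SE; adjusted p = 0.042). At 0 h Rps12 had 161 and 152 CPM with 4HT, against 161 and 160 CPM with ethanol, and those groups overlapped.

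Rpl36, the shortest member, ranged most widely over release, although no single time was called for it. At 0 h it had 40.5 and 34.7 CPM with 4HT, against 23.5 and 22 CPM with ethanol, a log2 fold change of 0.73 (adjusted p = 0.24, edgeR quasi-likelihood test). At 5 h it had 26.4 and 21.8 CPM with 4HT, against 60.8 and 33.6 CPM with ethanol, a log2 fold change of -0.96 (adjusted p = 0.099). The groups were apart at both times, in opposite directions, and the 2 ethanol libraries of 5 h were far from each other. Rps21 had a log2 fold change of 0.64 at 0 h and of -0.90 at 5 h, and neither was called (edgeR's adjusted p = 0.25 for 0 h, 0.092 for 5 h).

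**Figure D4:**
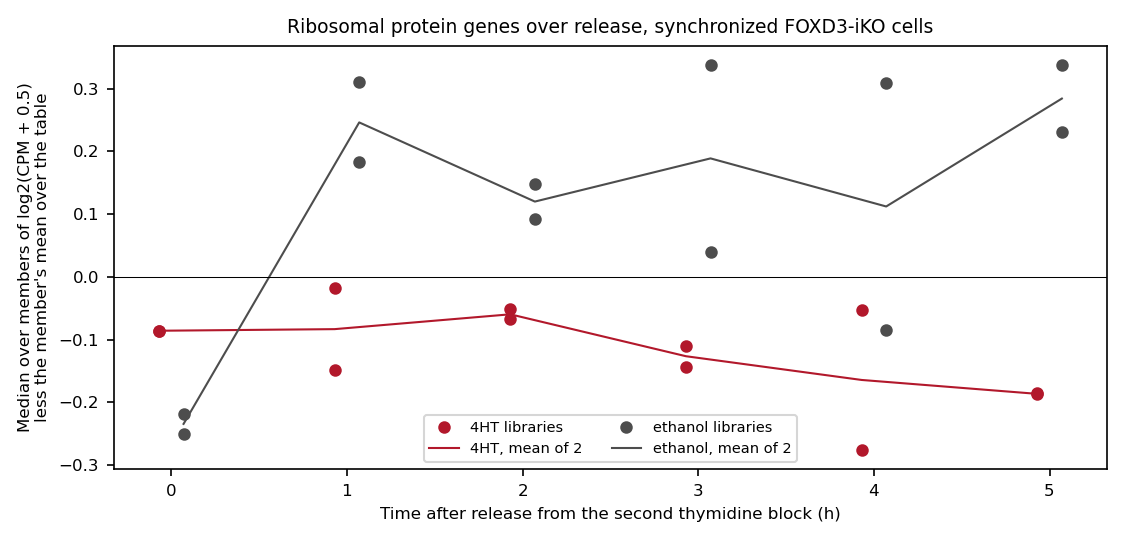
Median level of the ribosomal protein genes in each synchronized library, as log2(CPM + 0.5) less each gene's mean over the table, by hours after release; points are libraries and lines join the means of 2. Ethanol libraries lie at -0.22 and -0.25 at 0 h and mostly above 0 from 1 h on, and 4HT libraries lie between -0.28 and -0.02 throughout.

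The 2 arms followed different courses in their fitted medians. In ethanol cells the median member stood 0.49 above its 0 h level at 1 h (log2), then 0.37, 0.44, 0.38 and 0.54 above it at 2, 3, 4 and 5 h. In 4HT cells the corresponding values were 0.01, 0.02, -0.06, -0.08 and -0.09. In ethanol cells 15 members rose over release, in a background of 9.3% of all genes called higher, and in 4HT cells none changed, in a background of 15.4% called in either direction; there 1 had an unadjusted p under 0.05 and DESeq2 called 1. A difference between the arms in their course was tested directly and called for none of the 73 members, with 21 at an unadjusted p under 0.05 and none by DESeq2. Among all genes that test called 0%, with 882 at an unadjusted p under 0.05 and none by DESeq2.

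Among the members that rose in ethanol cells, Rpl7 had the smallest p (adjusted p = 0.0026), followed by Rps9 (0.012) and Rpl26 (0.015), in edgeR's test. Rplp0, the base of the acidic stalk, rose by up to 0.77 on the log2 scale (adjusted p = 0.016), with 89.3 to 163 CPM over the ethanol libraries. The count of 15 rests on the ethanol libraries of 0 h: it was far lower without either replicate of that time. It was higher without either replicate of 3 h or of 4 h, and without replicate 2 of 5 h. The number of all genes called in these refits is not given here, so the shifts cannot be read as particular to the members. Scaling by total counts left none called.

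Short genes in general had fold changes below 0 in the 3 comparisons with most calls. At 32 h of 4HT the median log2 fold change of other genes was -0.36 under 2 kb and -0.23 from 2 to 5 kb, against -0.58 for 8 members and -0.42 for 52 members of these lengths. After 24 h of doxycycline the other genes stood at -0.49 and -0.27, against -0.60 and -0.56 for members. Over release the other genes stood at -0.21 and -0.20, against -0.20 and -0.24 for members. In the 10 members of 5 to 10 kb the median was -0.37 at 32 h, -0.50 in the 11 of this length at 24 h of doxycycline and -0.27 over release, against -0.15, -0.20 and -0.16 for other genes. The 3 members of 10 to 30 kb had medians of -0.40, -0.46 and -0.22, against -0.05, -0.04 and -0.05 for other genes. The members' median was thus lower than that of other genes in every class and comparison except under 2 kb over release; these differences were not tested. With the trend of fold change on length removed, the members' medians in these 3 comparisons were -0.20, -0.29 and -0.07. In that setting 29, 57 and 20 members were called, of which 23, 54 and 20 were also called in the main fit. Of all genes 2608 of 18707, 8237 of 17713 and 4632 of 17739 were called there, 1239, 4306 and 2247 of them lower.

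**Figure D5:**
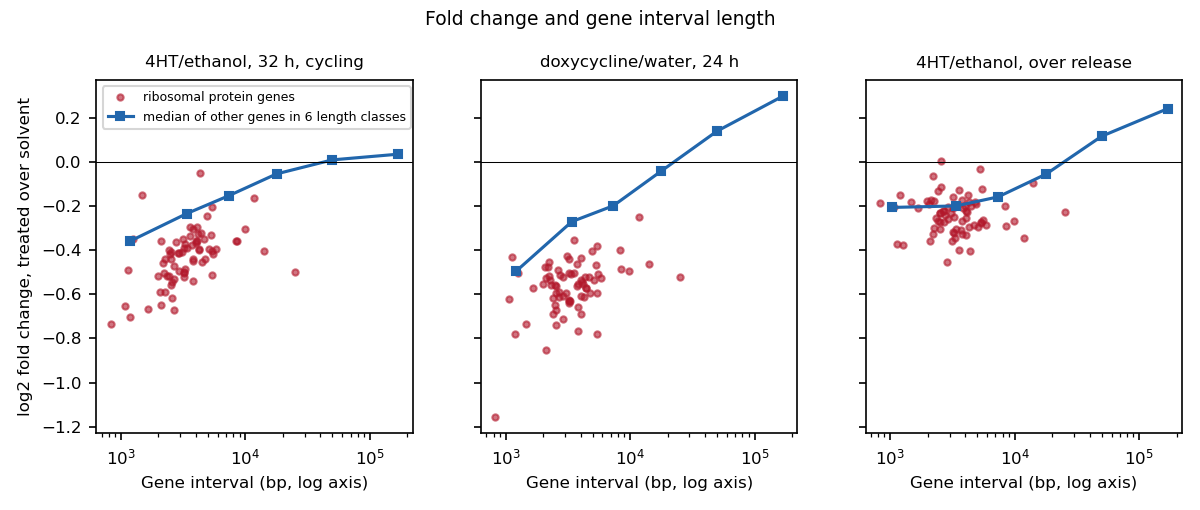
Log2 fold change against gene interval length (bp, log axis) in 3 comparisons; points are ribosomal protein genes and squares are medians of all other genes in 6 length classes. At 32 h of 4HT and 24 h of doxycycline the members' median lies below that of other genes in each of the 4 classes that hold members. Over release the medians are -0.24 for members and -0.20 for other genes of 2 to 5 kb, and -0.27 and -0.16 from 5 to 10 kb.

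Across these lengths the Spearman correlation of fold change with interval length was 0.30, 0.31 and 0.47 over the 18707, 17713 and 17739 genes tested in the 3 comparisons, and 0.53, 0.33 and -0.07 over the 73, 74 and 73 members; these are descriptions across genes of the same libraries. At 32 h, 15 of 28 tested members that carry a snoRNA gene and 22 of 45 others were called, a difference that was not tested. Among the members that overlap no other listed gene, 18 of 32 were called at 32 h, with the same median of -0.41.

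The calls of these 3 comparisons were set side by side. The 34 members called both at 32 h of 4HT and at 24 h of doxycycline are 91.9% of the calls of 4HT and 53.1% of those of doxycycline; doxycycline called 64 of the 74 members tested, and that count alone makes a large overlap likely. The 21 called in all 3 include Rpl5 and Rpl11, the 5S RNA partners, Rpl10, Rps3 of the mRNA entry site, Rps4x, encoded on the X chromosome, and the ubiquitin fusion gene Rps27a. Called in none of the 3 were Rpl34 and the unmeasured Rpl13, Rpl24 and Rps10. These comparisons share no library, but they share gene length and counting.

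Genes outside the rule were counted by list. The lists were chosen with earlier results of these data known, so their shares are descriptions and were not tested against the background. The share of all genes called lower was 4.59% at 32 h of 4HT, 18.7% at 24 h of doxycycline and 18.4% over release, and the share called higher 4.88, 18.1 and 18.6%. At 32 h of 4HT 4 of 9 tested paralogs of ribosomal protein genes, or 44.4%, fell, among them Rpl22l1 (-0.61, adjusted p = 0.0070), with a median of -0.55 against -0.05 for all genes; Rps27l stood at 0.05 (adjusted p = 0.85). At 24 h of doxycycline 6 of 9, or 66.7%, fell, among them Rpl39l (-0.96, adjusted p = 0.0012), with a median of -0.60 against -0.01; Rpl3l stood at 0.18 (adjusted p = 0.69). Over release 5 of 8, or 62.5%, fell, with Rpl39l at -0.45 (adjusted p = 1.3e-05) and Rpl22l1 at -0.43 (adjusted p = 5.5e-05), and a median of -0.23.

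Host genes of snoRNAs outside the ribosomal proteins formed a second list. At 32 h of 4HT 7 of 16, or 43.8%, fell, in the background of 4.59%, among them the non-coding host Snhg8 (-0.64, adjusted p = 0.0020), with a median of -0.35. At 24 h of doxycycline 14 of 16, or 87.5%, fell, in the background of 18.7%, among them Nop56, a core protein of box C/D snoRNPs (-0.95, adjusted p = 0.00092), with a median of -0.61. Over release 9 of 16, or 56.2%, fell, in the background of 18.4%, with Snhg8 at -0.47 (adjusted p = 5.5e-05) and a median of -0.19. Nop56, Nop58, Ncl, Rack1 and Eef1b2 each stand in 2 of these lists.

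Of 40 ribosome assembly factors, 4 fell at 32 h of 4HT, or 10.0% (median -0.18), 17 fell, or 42.5%, and 1 rose at 24 h of doxycycline (median -0.30), and 9 fell, or 22.5%, and 6 rose, or 15.0%, over release (median -0.06); the shares over release are near the background of 18.4% lower and 18.6% higher. Of 17 translation factors and other TOP genes tested, 1 fell at 32 h, Fau, which encodes a 40S protein as a fusion (-0.57, adjusted p = 0.035), a share of 5.88% near the background. In this list 6 fell at 24 h of doxycycline, or 35.3%, and 5 fell, or 29.4%, and 1 rose over release. Of 12 genes of RNA polymerase I and its factors, 1 fell and 1 rose at 32 h, 6 fell at 24 h of doxycycline, among them Ubtf (-1.24, adjusted p = 1.6e-05), and 4 rose, or 33.3%, and 1 fell over release, with Ubtf at 0.25 (adjusted p = 0.021).

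Of 16 regulators of ribosomal protein genes, none was called at 32 h of 4HT. At 24 h of doxycycline Myc fell by 1.91 (adjusted p = 0.00072) and Mycn by 1.04 (adjusted p = 0.0010) in edgeR's test, and 1 rose. The backgrounds were 18.7% of all genes called lower and 18.1% called higher, so these named genes do not set the list apart. Their part in the members' decrease was not tested. Over release 6 rose, or 37.5% in a background of 18.6% called higher, and 1 fell, with Mtor at 0.32 (adjusted p = 0.00047), Larp1 at 0.24 (adjusted p = 0.00040), Rptor at 0.27 (adjusted p = 0.00032) and Tsc1 at 0.26 (adjusted p = 4.1e-05); all are edgeR's adjusted p. Nuclear genes of mitochondrial ribosomal proteins fell in 5 of 74 cases at 32 h (6.76%, median -0.18) and in 19 at 24 h of doxycycline (25.7%, median -0.27), shares not far from the backgrounds of 4.59 and 18.7%. Over release 45 fell, or 60.8%, and 2 rose (median -0.21), in a background of 18.4% lower.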

How the data were processed

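Nascent RNA was measured in 48 libraries of 4SU-labelled mouse embryonic stem cells. The authors deposited 3 tables of raw counts, 1 row per gene, made with STAR and featureCounts on mm10, per the submitters' processing notes; no source used here gives strand settings or the treatment of multiply mapped reads. The Length given by the deposited tables equals the span from gene start to end in all 54752 genes. Of the gene IDs, 54723 matched a reference list of gene symbols once version numbers were dropped.

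Each table was fitted with edgeR 4.0.16 (R 4.3.3): TMM scaling, filterByExpr with a minimum count of 10, 1 coefficient per group over all groups of the table, the quasi-likelihood test and Benjamini-Hochberg adjustment over all genes tested. The SE is the log2 fold change divided by the root of the F statistic. The 4HT and doxycycline responses at 24 h were compared in 1 fit of both tables. Alternatives were DESeq2 1.42.0, RLE and total-count scaling, no filter, fits of single contrasts, a replicate block, a length trend and leaving out each library; a crossed block and a fit of 1 to 5 h alone were added after seeing the data. The scripts were tested on simulated data. Members and gene lists were chosen with earlier results of these data known. Named members are the 10 of smallest p called in each direction, the 3 highest and 3 lowest fold changes, the 3 highest and lowest levels per kb, and every untested member; values of a few genes that this rule names are not reported here. A zero count is given a limit of 3 counts, which covers counting error only; depth per library stands in the text. Replicates of a group differed beyond sampling noise in every group.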

Additional observations from a re-analysis of the deposited data

Results flagged for a closer look

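For 5 members the response to 4HT in cycling FOXD3-iKO cells and the response to doxycycline in OCT4-tetOff cells, both at 24 h, differed in a direct test of that difference (edgeR quasi-likelihood test, both tables in 1 fit). These 5 of 74 are a smaller share than the 9.08% of all genes called higher in that test, so the count says nothing particular about the members. On the log2 scale, 4HT response less doxycycline response, the differences were 1.1285 for Rpl36, 0.6919 for Rps29 and 0.6585 for Rpl29 among them. Only Rpl36 was called whichever single library was left out. Rpl36 had 8.76 and 9.82 CPM with 4HT and 9.37 and 9.71 CPM with ethanol at 24 h, while doxycycline and water gave 4.84 and 4.28 CPM against 9.95 and 10.4 CPM. The 4HT and ethanol values interleave, and the doxycycline values lie below all others. Rps29 had 29.8 and 32.9 CPM with 4HT and 31.4 and 33.4 CPM with ethanol, while doxycycline and water gave 19.8 and 17.3 CPM against 34.3 and 27.4 CPM.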

How the results depend on the processing

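No called value changed sign under any alternative run; the medians at 14 and 24 h of 4HT, between the ethanol times and at 0 h of release, which rest on no called member, did. With total counts as the scale, 5 members were called at 32 h of 4HT (median -0.24), 1 in the 24 h difference between responses, and 0 at 1, 3 and 5 h of release and in the ethanol course; the medians were -0.22 for 32 less 24 h, -0.0013 at 16 h of doxycycline, -0.44 over release, and -0.028, -0.55, -0.54, -0.60 and -0.51 at 0, 1, 2, 3 and 5 h. With totals outside Gm26917 and Gm42418, 2 were called at 32 h, 0 at 16 h of doxycycline, 1 in the 24 h difference, 0, 38 and 1 at 1, 3 and 5 h and 3 in the ethanol course, with medians of -0.40 over release and 0.19, -0.57, -0.35, -0.62 and -0.63 at 0, 1, 2, 3 and 5 h. RLE factors gave 1 call at 5 h and medians of 0.18 at 0 h and -0.39 at 5 h. DESeq2 called 0 at 16 h of doxycycline, 3 in the 24 h difference, 5, 3, 20, 2 and 14 at 1 to 5 h, 43 in the ethanol course and 1 in the 4HT course, with medians of 0.18 at 0 h and -0.39 at 5 h. Without the low-count filter 1 was called between the ethanol times, 2 at 16 h of doxycycline, 2 in 24 less 16 h, 19 in the 24 h difference, 4, 8 and 12 at 0, 1 and 5 h (median -0.39 at 5 h), 10 in the difference between courses, 34 in the ethanol and 1 in the 4HT course. With the length trend removed the calls were 8 between the ethanol times, 8 at 16 h of doxycycline, 3 in 24 less 16 h, 18 in the 24 h difference, 20 over release, 0 at 1, 3 and 5 h and 2 in the 4HT course. The medians with that trend removed were 0.033 at 8 h and -0.20 at 32 h of 4HT, -0.14 for 32 less 24 h, -0.086 and -0.29 at 16 and 24 h of doxycycline, -0.21 for 24 less 16 h, 0.23 in the 24 h difference, -0.069 over release, and -0.098, -0.042, -0.13 and -0.16 at 1, 2, 3 and 5 h. Fitting only the groups compared gave 1 call at 8 h and 0 at 32 h of 4HT, 41 and 30 at 16 and 24 h of doxycycline, 0, 0 and 1 at 1, 3 and 5 h, 0 in the ethanol and 8 in the 4HT course, and a median of -0.22 at 2 h. Members that overlap no listed gene gave 18 calls at 32 h; outside Gm26917, Gm42418 and mitochondrial genes, the members' share differed by -0.22 percentage points at 32 h and -0.36 at 24 h of doxycycline, against -0.10 and -0.21 of all counts. Same-numbered replicates did not deviate together throughout (correlations -0.16 to 0.57), so the numbers were not taken as pairs; a replicate block gave 26 calls at 32 h, 2 and 72 at 16 and 24 h of doxycycline, 4 in the 24 h difference, 51 over release, 6, 21 and 26 at 1, 3 and 5 h and 32 in the ethanol course. A crossed replicate block gave 38 calls at 32 h and 8 at 16 h of doxycycline. All counts in this paragraph, also those with 1 library left out, are of members alone. The number called among all genes moved with the setting too. At 32 h of 4HT that number was 1771 in the main fit and 194 with only the groups compared. Leaving out 1 library at a time gave 1 to 70 calls at 32 h (median -0.56 to -0.27), 0 to 18 for 32 less 24 h (-0.48 to -0.18), 0 to 12 between the ethanol times (-0.22 to 0.080), 0 at 16 h and 17 to 73 at 24 h of doxycycline, 0 to 2 for 24 less 16 h (-0.57 to -0.19) and 1 to 48 in the 24 h difference (0.29 to 0.67). It gave 0, 0 to 49, 0 to 5 and 0 calls at 1, 3, 4 and 5 h, and 1 to 61 in the ethanol course. Medians were 0.032 to 0.13 at 8 h, -0.20 to 0.12 at 14 h and -0.15 to 0.020 at 24 h of 4HT, and 0.16 to 0.20, -0.20 to -0.13, -0.54 to -0.17 and -0.51 to -0.40 at 0, 2, 3 and 5 h. Among the single-member values under the alternatives, 728 kept their direction and side of the threshold and 140 their direction alone; the causes were not tested. Rpl13, Rpl24 and Rps10 have too few counts to be read, and 2 libraries a group limit every count above.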
